A study of Mus musculus with 6 samples.

Results

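The genes examined here encode plasma membrane carriers that move amino acids into or out of the cell, or a chain of such a carrier. In all, 10 genes, called carriers below, were followed by name: Slc7a5, Slc3a2, Slc43a1, Slc1a5, Slc1a4, Slc38a1, Slc38a2, Slc7a1, Slc7a6 and Slc7a11. Each was read from its brightest probe set among those paired with that gene alone, and all 10 were found among the 19938 genes with such a probe set. RNA of whole thymus was hybridised to 6 arrays, 3 from RUNX2/MYC mice (genotype CD2-Myc/CD2-Runx2, background C57BL6/CBA) and 3 from wild-type mice (WT, C57/CBA), all 10 days old and each array labelled as a biological replicate. The CD2 control elements direct both transgenes to T cells, whereas the RNA came from every cell of the organ, so that fewer cells of a type and less RNA per cell cannot be told apart. Values are log2 signals as deposited, a log2 fold change is RUNX2/MYC minus WT, and the words higher and lower mark genes for which limma, fitted on all 35556 probe sets, gave an adjusted p under 0.05.

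Amino acid carriers work as exchangers, as sodium-coupled symporters or as uniporters, and most belong to families that share a substrate class. Slc7a5 (LAT1), Slc7a6 (y+LAT2) and Slc7a11 (xCT) are light chains that reach the plasma membrane bound to the heavy chain Slc3a2 (CD98, 4F2hc), whereas Slc43a1 (LAT3), Slc1a5 (ASCT2), Slc1a4 (ASCT1), Slc38a1 (SNAT1), Slc38a2 (SNAT2) and Slc7a1 (CAT1) act without it. T cells raise several of these carriers when they are activated and start to grow, and the leucine and arginine they bring in are read by the mTORC1 pathway. In many cell types, transcription of several of the genes rises through ATF4 when amino acids run short, and MYC with its partner MAX binds the E-box CACGTG.

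The promoters of Slc43a1 and Slc7a11, the carriers with the largest changes in each direction, are shown. Slc7a11 was not called, and the letters marked in it were searched after the sequences had been seen. RefSeq (GRCm38.p6) gave 300-base windows, 250 bases before to 50 after the start, for 7 of the 10 genes (9 windows), and the 250 bases before the start are printed 5′ to 3′ on the strand of the gene. No window was available for Slc7a5, Slc1a5 and Slc38a1, so these genes were not searched. Carriers are counted by gene, whereas the shares of all windows are by window. Slc43a1 lies on the plus strand (window part chr2:84840073-84840322) and Slc7a11 on the minus strand (chr3:50443614-50443863). Capitals mark CACGTG in Slc43a1 and TGATGNAA, read on either strand, in Slc7a11.
Slc43a1: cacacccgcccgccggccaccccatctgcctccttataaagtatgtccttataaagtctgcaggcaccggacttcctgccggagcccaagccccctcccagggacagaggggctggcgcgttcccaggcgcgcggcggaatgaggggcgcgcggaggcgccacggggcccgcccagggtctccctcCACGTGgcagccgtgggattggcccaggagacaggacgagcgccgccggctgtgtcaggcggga
Slc7a11: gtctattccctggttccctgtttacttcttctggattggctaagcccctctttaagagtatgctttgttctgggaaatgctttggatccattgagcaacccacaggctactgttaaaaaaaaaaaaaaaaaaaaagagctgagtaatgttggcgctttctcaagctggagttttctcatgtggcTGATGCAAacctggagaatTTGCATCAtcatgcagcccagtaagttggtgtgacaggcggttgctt
The CACGTG of Slc43a1 lay from -64 to -59 relative to the start, and it was the only one of the 7 genes with these letters, which are held by 7.15% of 32851 windows. TGNGGT, letters that RUNX proteins bind, occurred on either strand in 4 of the 7 (Slc43a1, Slc3a2, Slc7a1 and Slc7a6), against 45.8% of all windows. The longer ATF4-type motif TGATGNAAT was in none of the 7 and in 0.965% of all windows. Its shorter form TGATGNAA, contained in the longer one and searched after the sequences had been seen, occurred in 2 of the 7 and in 3.97% of all windows. In Slc7a11 it stood at -66 to -59 on the strand of the gene and at -47 to -40 on the opposite strand, and in Slc1a4 on the opposite strand across the start. A match describes letters and not a binding site.

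Of the 10 carriers, 4 were higher in RUNX2/MYC thymus (Slc43a1, Slc1a5, Slc7a5 and Slc7a1), none was lower and 6 were not called, where limma called 1.68% of all probe sets higher and 0.127% lower (1.8% in all). Without adjustment, 6 carriers with a positive and 1 with a negative log2 fold change had a limma p under 0.05. Such an unadjusted p was common on the array, with 7579 of all 35556 probe sets under 0.05. By the q value of the methods' one-way test 5 were higher, Slc7a6 being the fifth, and none lower, where 3.41% of all probe sets were higher and 0.695% lower. The log2 fold change was positive for 7 and negative for 3, where 42.3% of all probe sets were positive. Its median was 0.36 over the 10 genes against -0.051 over all probe sets. Arrays of the groups did not overlap for 7 carriers, 6 of them with RUNX2/MYC above WT and 1 with RUNX2/MYC below WT (Slc7a11), where 24.4% of all probe sets were without overlap, 14.3% with RUNX2/MYC above WT and 10.1% with RUNX2/MYC below WT. The mean log2 signal was 9 or more for 9 of the 10, and among all 8600 probe sets at that level, a background chosen after seeing the data, limma called 3.8% higher, with a median log2 fold change of 0.12.

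**Figure D1:**
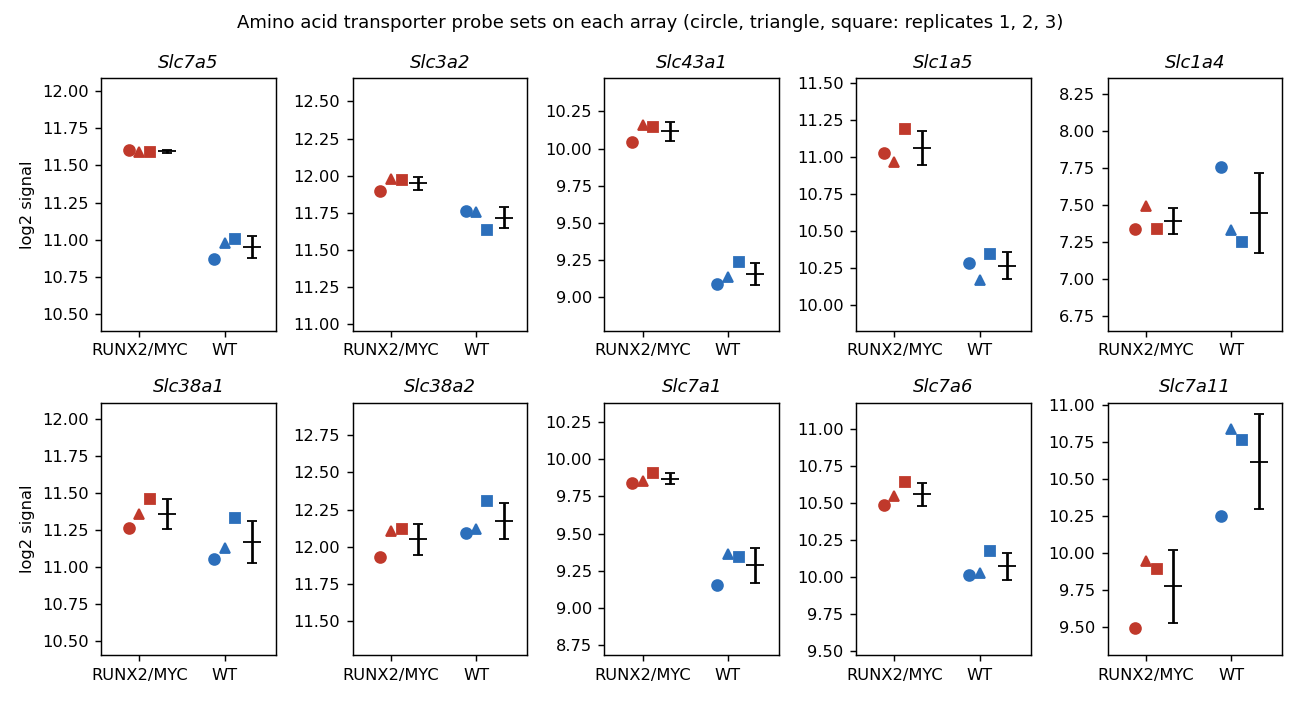
Log2 signal of the 10 carriers on each array, with RUNX2/MYC left of WT in each panel, points as arrays (circle, triangle and square for replicates 1, 2 and 3) and a dash with error bar as mean ± SD. The arrays of the groups are apart for Slc43a1, Slc1a5, Slc7a5, Slc7a1, Slc7a6, Slc3a2 and Slc7a11, the last with RUNX2/MYC below WT, and overlap for Slc1a4, Slc38a1 and Slc38a2.

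Slc43a1 and Slc7a5, which both carry large neutral amino acids, were higher. Slc43a1, which lets leucine and other large neutral amino acids pass along their gradient, had log2 signals of 10.04, 10.16 and 10.15 in RUNX2/MYC thymus, against 9.09, 9.14 and 9.24 in WT thymus. The lowest RUNX2/MYC array lay 0.81 above the highest WT array. Means were 10.12 ± 0.062 in RUNX2/MYC thymus and 9.15 ± 0.075 in WT thymus (SD, n = 3 each), a log2 fold change of 0.96 (SE 0.087, 95% interval 0.76 to 1.17, limma adjusted p = 0.0140), or 1.95-fold. This change lay above that of 99.3% of all probe sets. Slc7a5, which exchanges intracellular amino acids for leucine, tryptophan and other large neutral ones, had log2 signals of 11.61, 11.59 and 11.59 in RUNX2/MYC thymus and 10.87, 10.98 and 11.01 in WT thymus. The 3 RUNX2/MYC arrays were almost level, and all stood well above WT. Their mean was 11.60 ± 0.0096, against 10.95 ± 0.074 in WT thymus (SD, n = 3 each), which gave a log2 fold change of 0.65 (SE 0.083, 95% interval 0.45 to 0.84, limma adjusted p = 0.0209) or 1.57-fold.

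The heavy chain was not called. Slc3a2, which carries its light chains to the cell surface, had log2 signals of 11.90, 11.98 and 11.97 in RUNX2/MYC thymus, against 11.76, 11.75 and 11.63 in WT thymus. All RUNX2/MYC arrays lay above all WT arrays, by 0.14 at the nearest. Its log2 fold change was 0.23 (SE 0.084, 95% interval 0.033 to 0.43, limma adjusted p = 0.196). The change of Slc7a5 exceeded that of Slc3a2 by 0.41 (SE 0.083, 95% interval 0.18 to 0.65) and fell short of that of Slc43a1, the difference of Slc7a5 minus Slc43a1 being -0.32 (SE 0.048, 95% interval -0.45 to -0.18). In both comparisons the arrays of the groups were fully separated, and the exact permutation test (two-sided) gave p = 0.1, the smallest that 3 arrays against 3 allow, adjusted to 0.125 over the 5 pairs compared.

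Genes whose mean-centred log2 profile over the 6 arrays was nearest to that of Slc7a5 were 1700017B05Rik (root mean square difference 0.0286), Bop1 (0.0329) and Rrp9 (0.0384), Bop1 and Rrp9 being known from ribosome biogenesis, with log2 fold changes of 0.60, 0.67 and 0.66. Nearest to Slc3a2 were Nacc1 (0.0186), the glutathione synthetase gene Gss (0.0199) and the mitochondrial phosphate carrier gene Slc25a3 (0.0221), with log2 fold changes of 0.21, 0.26 and 0.21, none of which was called. Profiles were centred over both groups together, so this search picks genes of nearly the same log2 fold change. Shared regulation was not tested.

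Among carriers of small neutral amino acids, only the glutamine exchanger was called. Slc1a5, which takes up glutamine in exchange for other neutral amino acids, had log2 signals of 11.03, 10.96 and 11.19 in RUNX2/MYC thymus and 10.28, 10.17 and 10.35 in WT thymus. The nearest arrays of the groups were 0.61 apart. Its means were 11.06 ± 0.11 in RUNX2/MYC thymus and 10.27 ± 0.089 in WT thymus (SD, n = 3 each), with a log2 fold change of 0.79 (SE 0.099, 95% interval 0.56 to 1.03, limma adjusted p = 0.0201), or 1.73-fold. Its relative Slc1a4, an exchanger of alanine, serine and cysteine, had log2 signals of 7.34, 7.50 and 7.34 in RUNX2/MYC thymus and 7.76, 7.33 and 7.25 in WT thymus. WT replicate 1 was the highest array, and the groups overlapped. These signals were near the medians of all probe sets on the arrays (7.31 to 7.49), which limits the comparison with Slc1a5. The log2 fold change of Slc1a4 was -0.053 (SE 0.15, 95% interval -0.40 to 0.29, adjusted p = 0.831), and its sign turned in 5 of the 17 other settings tried, among them without WT replicate 1 (0.10). The difference of Slc1a5 minus Slc1a4 was 0.84 (SE 0.20, 95% interval 0.29 to 1.4, exact permutation p = 0.1, adjusted 0.125).

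Sodium-coupled carriers of glutamine and alanine were not called. Slc38a1 had log2 signals of 11.26, 11.35 and 11.46 in RUNX2/MYC thymus, against 11.06, 11.13 and 11.33 in WT thymus, and the arrays overlapped. Its log2 fold change was 0.19 (SE 0.11, 95% interval -0.066 to 0.44, adjusted p = 0.327), and a second probe set of the gene gave 0.25 (SE 0.18, adjusted p = 0.413). Slc38a2, a classical target of amino acid shortage, had log2 signals of 11.93, 12.11 and 12.12 in RUNX2/MYC thymus and 12.09, 12.12 and 12.31 in WT thymus. The arrays of this gene overlapped as well. Its log2 fold change was -0.12 (SE 0.10, 95% interval -0.36 to 0.12, adjusted p = 0.475). The difference within arrays of Slc38a1 minus Slc38a2 was 0.31 (SE 0.034, 95% interval 0.21 to 0.40, exact permutation p = 0.1, adjusted 0.125).

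Carriers of arginine and lysine were both above WT on every array. Slc7a1, the main importer of arginine in many cells, had log2 signals of 9.84, 9.85 and 9.91 in RUNX2/MYC thymus and 9.15, 9.36 and 9.34 in WT thymus. The RUNX2/MYC arrays were close together, and WT replicate 1 was the lowest of all. Means of 9.87 ± 0.037 in RUNX2/MYC thymus and 9.29 ± 0.12 in WT thymus (SD, n = 3 each) gave a log2 fold change of 0.58 (SE 0.093, 95% interval 0.36 to 0.80, limma adjusted p = 0.0351), or 1.50-fold. Slc7a6, a light chain that exchanges arginine for glutamine and sodium, had log2 signals of 10.48, 10.55 and 10.64 in RUNX2/MYC thymus and 10.01, 10.03 and 10.17 in WT thymus. The groups were 0.31 apart at the nearest, and the gene just missed the call. Its log2 fold change was 0.49 (SE 0.092, 95% interval 0.27 to 0.70, limma adjusted p = 0.0541). The difference of Slc7a1 minus Slc7a6 was 0.097 (SE 0.066, 95% interval -0.087 to 0.28), and the exact permutation test gave p = 0.3, also after adjustment over the 5 pairs.

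The cystine carrier was the one gene of the 10 that lay below WT on all arrays. Slc7a11, which imports cystine in exchange for glutamate and so feeds glutathione synthesis, had log2 signals of 9.49, 9.94 and 9.89 in RUNX2/MYC thymus, against 10.25, 10.83 and 10.76 in WT thymus. Replicate 1 was the lowest array of each group, and the groups were 0.30 apart at the nearest. Means were 9.78 ± 0.25 in RUNX2/MYC thymus and 10.61 ± 0.32 in WT thymus (SD, n = 3 each), the widest spread within RUNX2/MYC among the carriers. The log2 fold change of -0.84 (SE 0.19, 95% interval -1.30 to -0.38, limma adjusted p = 0.0855) was not called, although 0.965% of all probe sets had a lower one. The enzymes that make glutathione did not share this sign: Gclc, Gclm and Gss, named after their values were seen, had log2 fold changes of 0.36, 0.34 and 0.26, none of them called.

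**Figure D2:**
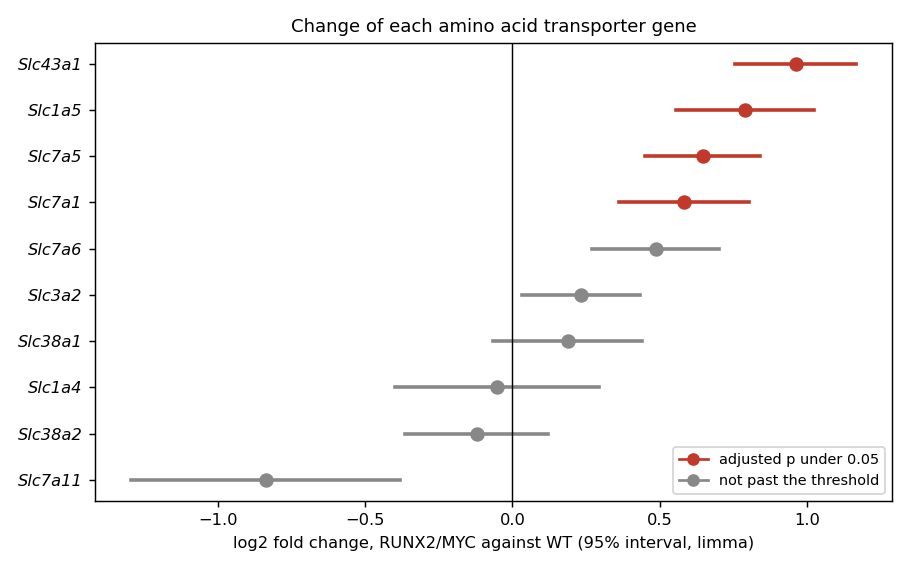
Log2 fold change of each carrier, RUNX2/MYC against WT, with its 95% interval from limma, ordered from Slc43a1 (0.96) at the top to Slc7a11 (-0.84) at the bottom. The 4 called genes are Slc43a1, Slc1a5, Slc7a5 and Slc7a1, and the intervals of Slc38a1, Slc1a4 and Slc38a2 include 0.

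Several lists of cell type markers differed in level between the groups, and their part in the values of the carriers was not tested. Beside the higher carriers, the erythroid list, measured for 5 of 9 genes, had 3 positive and 2 negative log2 fold changes, a summed linear signal of 1535 to 3081 on the RUNX2/MYC arrays and 945 to 1147 on the WT arrays, and 1 called gene, the erythropoietin receptor gene Epor (1.39, adjusted p = 0.00971). Alas2, the heme synthesis enzyme of red cells, stood at 10.91, 9.98 and 9.36 in RUNX2/MYC thymus and 9.21, 8.55 and 8.99 in WT thymus. RUNX2/MYC replicate 1, the highest of these, was the lowest RUNX2/MYC array for 7 of the 10 carriers, Slc43a1 and Slc7a1 among them. It was the highest for 1, Slc7a5. The order was close for Slc7a1 (9.84 against 9.85 on replicate 2) and for Slc7a5 (11.61 against 11.59 on both others). The red cell genes Klf1 and Rhag were at -0.087 and -0.12. Beside Slc7a11, all 12 markers of thymic epithelium were negative, with a summed linear signal of 19228 to 22129 on the RUNX2/MYC arrays and 25934 to 28030 on the WT arrays. Markers of dendritic cells and macrophages were negative for 10 of 12 (12628 to 13756 and 14788 to 15820 for RUNX2/MYC and WT), and those of fibroblasts for 9 of 9 (3094 to 4140 and 3828 to 4335). No gene of these 3 lists was called. Thymocyte markers, which define the organ, had a mean log2 signal of 11.34 to 11.68 on the RUNX2/MYC arrays and 11.72 to 11.85 on the WT arrays, and 8 of the 11 measured were negative (median -0.23, none called). Endothelial markers were negative for 7 of 9 and B cell markers for 6 of 7, none of them called. Of all probe sets, 42.3% had a positive log2 fold change, so negative signs were the majority across the array as well. Adipocyte markers were highest in RUNX2/MYC replicate 2 for 9 of 12, with a mean log2 signal of 8.26 there and 6.98 to 7.37 on the other arrays. That replicate was the highest RUNX2/MYC array for 4 of the 10 carriers. Without it no carrier was called, where 3 of all probe sets were higher and 0 lower.

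Of 45 other amino acid transporter genes, all measured, 1 was higher and none lower, a share of 2.22% higher that is near the 1.68% of all probe sets. In this list 14 were positive and 31 negative, with a median of -0.098, where 42.3% of all probe sets were positive. Its mean log2 signal was 7.24 to 7.39 over the arrays, against 10.23 to 10.63 for the 10 carriers. Medians of all probe sets on the arrays were 7.31 to 7.49, so this list was weak. Whether its genes are expressed in thymus was not tested. The called gene was Slc6a19, a neutral amino acid carrier known from gut and kidney, which had log2 signals of 7.59, 7.68 and 7.40 in RUNX2/MYC thymus, against 6.85, 7.01 and 6.96 in WT thymus (log2 fold change 0.62, SE 0.10, adjusted p = 0.0417). The call was lost without any 1 of the 6 arrays. Closest relatives of the members, named after their values were seen, had log2 fold changes of 0.056 for the light chain Slc7a8 (LAT2), 0.094 for Slc7a7 (y+LAT1) and -0.0032 for Slc43a2 (LAT4).

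The list of genes that sense amino acids upstream of mTORC1 also holds Mtor and Rptor, parts of mTORC1 itself. Of its 28 measured genes, 23 were positive, with a median of 0.17 beside 0.12 over the probe sets with a mean log2 signal of 9 or more. In this list 2 (7.14%) passed the test, where 1.68% of all probe sets were called higher. On RUNX2/MYC replicate 2, the array with the high adipocyte markers, 18 of the 28 had their highest signal, and without it 0 were called. These were Rragb, a Rag GTPase that recruits mTORC1 to lysosomes (log2 fold change 1.20, SE 0.14, adjusted p = 0.0173), and Lars, the leucyl-tRNA synthetase, which also acts as a leucine sensor (0.62, SE 0.11, adjusted p = 0.0465). None was lower.

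Genes of the ATF4 response, a list that also holds Atf4 itself and Eif2ak4, were mixed. Of 26 measured, 5 (19.2%) were higher and none lower, where 1.68% of all probe sets were called higher. Among probe sets with a mean log2 signal of 9 or more, 3.8% were called higher. In this list 16 were positive and 10 negative, and the median was 0.14, near the 0.12 over those bright probe sets. The higher genes were Asns, asparagine synthetase (1.93, adjusted p = 0.00191), the proline enzyme Aldh18a1 (0.70, adjusted p = 0.0176), the secreted glycoprotein gene Stc2 (0.64, adjusted p = 0.0280), the seryl-tRNA synthetase gene Sars (0.51, adjusted p = 0.0384) and the serine synthesis enzyme Psat1 (0.50, adjusted p = 0.04999, just inside the threshold). Stress-linked targets named after their values were seen, Ddit3, Trib3 and Chac1, had log2 fold changes of 0.011, -0.059 and -0.10. Atf4 itself was at 0.28 (SE 0.089, adjusted p = 0.166).

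Enzymes that use the imported amino acids were higher for 4 of 19 measured (21.1%, against 1.68% of all probe sets) and lower for none, with a median of 0.26 and 15 positive. Beside Asns, which is in both lists, they were Bcat1, which transaminates leucine and the other branched-chain amino acids (1.53, adjusted p = 0.00831), Odc1, which turns ornithine into putrescine (0.68, adjusted p = 0.0296), and the aspartate aminotransferase gene Got1 (0.66, adjusted p = 0.0271). Carriers of other nutrients were positive for all 15 measured, with a median of 0.21, and 4 were higher (26.7%, against 1.68% of all probe sets). These were the folate carrier gene Slc19a1 (1.16, adjusted p = 0.0137), the zinc importer gene Slc39a10 (0.77, adjusted p = 0.0428), the transferrin receptor gene Tfrc (0.73, adjusted p = 0.0318), which also marks erythroid precursors, and the glucose transporter gene Slc2a3 (0.57, adjusted p = 0.0317). Calls of these lists were lost with single arrays as well: without replicate 2 or 3 of RUNX2/MYC, or replicate 1 or 2 of WT, 1 ATF4 response gene, 1 enzyme, 0 other nutrient carriers and 0 sensing genes were called, against 5, 4, 4 and 2 with all arrays. Without WT replicate 3, 2 ATF4 response genes and 1 sensing gene were called.

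**Figure D3:**
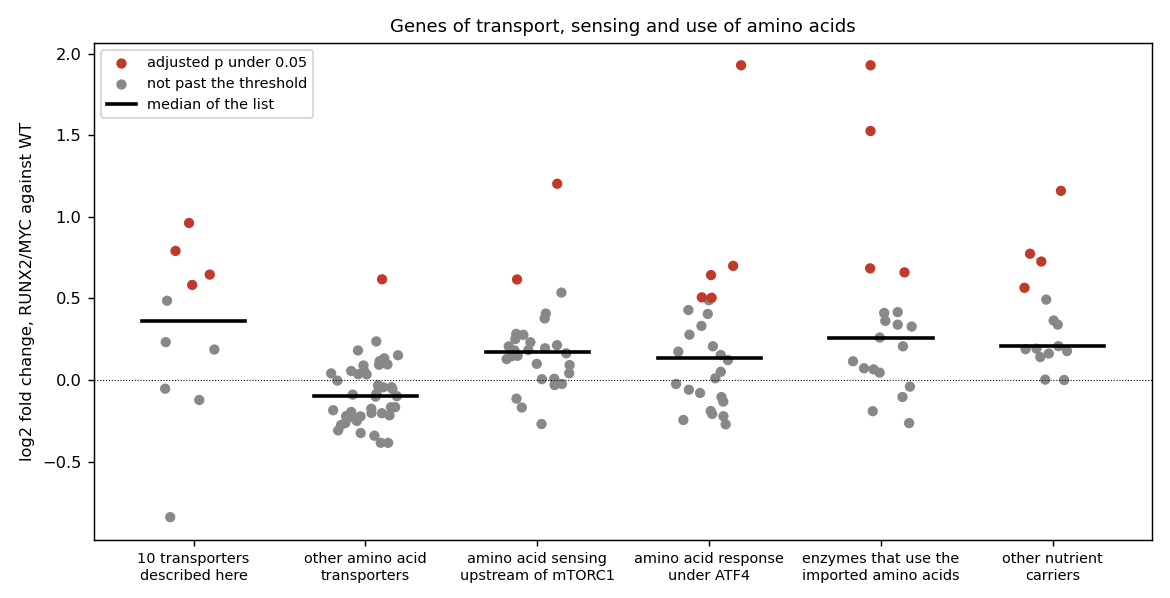
Strip plot of the difference in log2 signal between RUNX2/MYC and WT thymus (y axis) for the 10 carriers and the measured genes of the related lists (x axis), with a bar at each list's median. Medians were 0.36 for the 10 carriers, -0.098 for the 45 other amino acid transporters, 0.17 for sensing genes, 0.14 for ATF4 response genes, 0.26 for enzymes and 0.21 for other nutrient carriers.

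The calls depended on single arrays and less on the scaling. Slc43a1 was called under all 11 other ways of processing all arrays (adjusted p 3.15e-04 to 0.0407), Slc7a5 and Slc1a5 under 10 and Slc7a1 under 8. With 1 array left out, Slc43a1, Slc7a5 and Slc1a5 were called only without RUNX2/MYC replicate 1 or without WT replicate 3, and Slc7a1 only without RUNX2/MYC replicate 1 (adjusted p without each array 0.0270 to 0.110 for Slc43a1, 0.0376 to 0.132 for Slc7a5, 0.0348 to 0.130 for Slc1a5 and 0.0459 to 0.168 for Slc7a1). Of all probe sets, 596 were higher and 45 lower, a split that was 209 and 45 with 75th percentile centring and 457 and 124 with cyclic loess. No carrier was called, and 3 or 4 probe sets of the whole array were higher, where replicate 2 or 3 of RUNX2/MYC or replicate 1 or 2 of WT was left out. With 1 array left out, the sizes moved little. Log2 fold changes were then 0.93 to 1.00 for Slc43a1, 0.73 to 0.84 for Slc1a5 and 0.60 to 0.67 for Slc7a5. They were 0.52 to 0.62 for Slc7a1, 0.45 to 0.54 for Slc7a6 and -1.02 to -0.70 for Slc7a11. Except for Slc7a11, the ranges were wider under the 11 other ways of processing all arrays. There they were 0.82 to 1.05 for Slc43a1, 0.65 to 0.94 for Slc1a5 and 0.51 to 0.73 for Slc7a5. For Slc7a1, Slc7a6 and Slc7a11 they were 0.44 to 0.67, 0.34 to 0.58 and -0.99 to -0.76. Over all these settings, 9 of the 10 carriers kept their sign. As a check of the labels, the probe set that the study's supplementary list names as Runx2 stood at 11.82 ± 0.12 in RUNX2/MYC thymus and 7.94 ± 0.0026 in WT thymus (SD, n = 3 each), and that of mouse Myc, which need not read a transgene, at 10.65 ± 0.20 and 11.13 ± 0.13 for RUNX2/MYC and WT (limma adjusted p = 0.119).

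**Figure D4:**
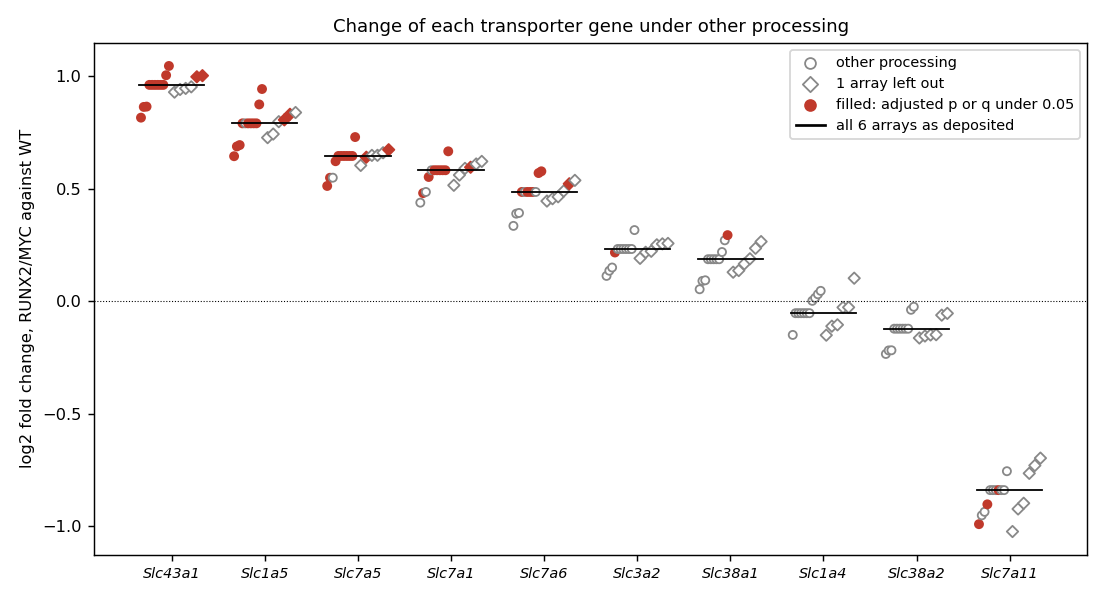
Differences in log2 signal between RUNX2/MYC and WT thymus for the 10 carriers under other processing of all 6 arrays (circles) and with 1 array left out (diamonds), filled where the adjusted p or q was under 0.05, with a bar at the value from the deposited signals. Values of Slc43a1, Slc1a5, Slc7a5, Slc7a1 and Slc7a6 stay above 0, those of Slc7a11 stay below 0, and Slc1a4 crosses 0.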

How the data were processed

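Whole thymus RNA of 3 RUNX2/MYC and 3 WT mice was hybridised to MoGene-1 arrays. The log2 signals were used as deposited by the authors. The submitters' processing notes name RMA and Affymetrix Expression Console 1.4, and the methods name Partek Genomics Suite with RMA after a GC content adjustment, so which made the values is unknown. RMA summarises and normalizes probes, which compresses weak signals and can remove shifts shared by all genes. The deposited arrays still differed in level. Their medians were 7.31 to 7.44 for RUNX2/MYC and 7.41 to 7.49 for WT. Their 75th percentiles were 8.92 to 9.04 for RUNX2/MYC and 8.85 to 8.97 for WT. Of 35556 probe sets, 21789 were paired with 1 symbol, 1621 with several and 12146 with none. Groups were compared with limma 3.58.1 (R 4.3.3), two-sided, p-values being adjusted by Benjamini-Hochberg across the whole array, and each gene was read from its brightest probe set. Pairs of carriers were compared by exact permutation of array labels (10 splits). The number of arrays limits the precision, and p-values measure only the spread between these samples. All 10 carriers are named, genes past the test from each related list (at most 6 by smallest p), and for Slc7a5 and Slc3a2 the 3 nearest profiles. The carriers and lists were chosen with earlier results of these data known. The alternatives were the methods' one-way test, other scaling, filters, a replicate block and leaving out each array. On simulated data limma recovered 100 of 100 probe sets changed by 1 on the log2 scale, among 35556 with 200 changed. The simulation gave every probe set independent noise of the same SD and no differences between arrays. The largest change of a carrier was 0.96 (Slc43a1), so this recovery checks the code and does not give the power for the carriers.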

Additional observations from a re-analysis of the deposited data

How the results depend on the processing

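Leaving out 1 array at a time gave 3 to 872 probe sets higher and 0 to 718 lower, 0 to 5 carriers higher and a carrier median of 0.33 to 0.40, against 596, 45, 4 and 0.36 with all arrays. The replicate block gave 1654 higher and 763 lower probe sets, 5 carriers higher and 1 lower (Slc7a11). The labels do not state that the replicate numbers pair the arrays. Deviations of same-numbered arrays from their group means correlated at 0.501, -0.148 and 0.606, and not every array correlated best with its own number. With 3 arrays a group, these values cannot settle whether the arrays are paired. The methods' one-way test gave 162 higher probe sets and 2 carriers after Benjamini-Hochberg adjustment, and 1213 higher and 247 lower probe sets by q value. Median centring gave 915 higher probe sets and a carrier median of 0.44, 75th percentile centring 209, 2 carriers and 0.26, quantile normalization 98 lower probe sets and 0.27, and cyclic loess 124 lower probe sets, 1 carrier lower and 0.22. Leaving out dim probe sets gave 85 lower probe sets, and an intensity trend 1054 higher and 104 lower. Array weights, whose estimation stopped before it converged, gave 9165 higher and 12137 lower probe sets, 7 carriers higher, 1 lower and a median of 0.42. With 75th percentile centring, 0 other amino acid transporters, 1 sensing gene, 1 ATF4 response gene, 2 enzymes and 1 other nutrient carrier were higher, and with the one-way test after Benjamini-Hochberg adjustment 0, 0, 2, 2 and 1, against 1, 2, 5, 4 and 4. Slc7a6 was called under 6 of the 11 alternatives that used all arrays and Slc7a11 under 3. The log2 fold change of Slc1a4 turned to 0.031 with median centring, 0.015 with quantile normalization, 0.047 with cyclic loess, 0.0022 with array weights and 0.10 without WT replicate 1 (-0.15 to 0.10 over the arrays left out). The causes of these changes were not tested.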
